A study of Mus musculus with 5 samples.

Results

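The genes described here are 10 genes of the integrated stress response, chosen by name and matched by Ensembl identifier to their mouse symbols, out of 39179 genes listed in the count table. They are the eIF2 kinase genes Eif2ak1, Eif2ak3 and Eif2ak4, the transcription factor genes Atf3, Atf4, Atf5 and Ddit3, the effector genes Trib3 and Chac1, and Ppp1r15a, which encodes a subunit of the eIF2 phosphatase. All 10 were found in the table and all 10 were among the 13000 genes tested. Atf3 entered the test through its KO libraries alone, so it could hardly have entered without differing. The choice of the 10 genes was made with earlier results of these data known.

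The libraries hold poly(A) RNA of TER119+ erythroid cells sorted from the fetal livers of C57BL/6 mice at 14.5 days post conception. The 2 KO libraries came from embryos of genotype Csnk2bfl/fl Vav+/Cre, and the 3 control libraries from embryos of genotype Csnk2b+/+ Vav+/Cre, so both groups carry the Cre transgene. Csnk2b encodes CK2 beta, the regulatory subunit of protein kinase CK2, and the Vav1 promoter drives Cre throughout the blood-forming system. Whether a library is 1 embryo or a pool is not said in the labels, and the p-values therefore rest on a spread between samples that may be technical in part.

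In the integrated stress response, kinases that each sense a different stress phosphorylate the translation factor eIF2. General protein synthesis then slows, while a few mRNAs with upstream open reading frames, Atf4 among them, are translated more. ATF4 switches on genes for amino acid supply, for further transcription factors and for feedback inhibitors. In erythroid cells the heme-regulated kinase encoded by Eif2ak1 is known for matching globin synthesis to the heme supply. RNA counts do not measure eIF2 phosphorylation or the amount of ATF4 protein.

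ATF4 binds composite C/EBP-ATF elements, which share the core TGATGNAA. In the RefSeq promoter windows of build GRCm38.p6, which run from 250 bases before to 50 bases after each start site, this core was searched on both strands. It was found in 3 of the 10 genes, Atf3, Chac1 and Trib3, and in 1219 of 27025 genes with a window, or 4.51%. As the 10 genes were chosen for their place in the response, the share among them tests nothing. The 250 bases before the start sites of Atf3 and Chac1 are shown because they hold the core in a gene that differed between the groups, and for Trib3 the 30 bases around the match are shown. Capitals mark the match to the core, read here as its reverse complement.
Atf3, chr1:191183334-191183583, minus strand: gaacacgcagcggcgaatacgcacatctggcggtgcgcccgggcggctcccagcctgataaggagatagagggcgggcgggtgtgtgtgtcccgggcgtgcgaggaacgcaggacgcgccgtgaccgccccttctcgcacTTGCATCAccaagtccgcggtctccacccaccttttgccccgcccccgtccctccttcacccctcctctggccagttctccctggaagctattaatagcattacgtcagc
Chac1, chr2:119350992-119351241, plus strand: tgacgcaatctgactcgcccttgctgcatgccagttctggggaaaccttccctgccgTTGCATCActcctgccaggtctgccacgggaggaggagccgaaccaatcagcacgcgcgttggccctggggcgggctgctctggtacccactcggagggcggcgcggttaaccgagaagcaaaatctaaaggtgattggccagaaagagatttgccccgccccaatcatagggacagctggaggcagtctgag
Trib3, chr2:152344028-152344057, minus strand: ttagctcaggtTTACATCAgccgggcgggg
The matches of Atf3 and Chac1 are the same 8 letters, and that of Trib3 differs from them at the base the core leaves free. In Trib3 the match starts 15 bases into the RefSeq transcript but lies before the gene start that GENCODE M21 gives. The windows of Atf4, Atf5, Ddit3, Ppp1r15a and the 3 kinase genes held no match, and a window without these letters says nothing about binding elsewhere. A second motif, the ATF and CREB element TGACGTCA, was found in the window of Ppp1r15a, against 2.03% of all genes.

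Totals were 13187094 to 15366021 counts per library, so that 1 CPM (counts scaled to TMM-adjusted library size) was 13 to 15.5 counts. The targeted gene Csnk2b was at 112 and 95.6 CPM in the KO libraries and at 186, 186 and 169 CPM in the controls, a log2 fold change of -0.80 ± 0.09 (SE; edgeR adjusted p = 0.00177). Counts cover the whole gene, and which exons are floxed is not named in the labels. Control replicate 3 stood apart in holding 367 counts of the Y-linked gene Ddx3y beside Xist at 547 CPM, while the other libraries held at most 2 counts of Ddx3y. Xist was at 1000 and 788 CPM in the KO libraries and at 1026 and 995 CPM in control replicates 1 and 2. The groups thus differed in Y-linked RNA, and the part of embryo sex in the differences was not tested.

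Of the 13000 genes tested over all 5 libraries, 6.98% differed between KO and control at an edgeR adjusted p below 0.05 (Benjamini-Hochberg over all genes), with 5.15% higher in KO and 1.83% lower. Of the 10 stress response genes 5 rose, namely Trib3, Atf3, Atf5, Chac1 and Ddit3. None fell by edgeR's test, while 1 of the genes that were lower, Eif2ak4, had an unadjusted p under 0.05, and none fell with DESeq2 or limma-voom. Only Trib3, Atf5 and Atf3 were called when control replicate 1 was left out, or when genes with low counts were kept in the fit. The KO libraries lay above all controls in 6 genes and below them in 1, whereas over all genes tested the groups were apart in 41.2%, with KO above in 21.9% and below in 19.3%.

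**Figure D1:**
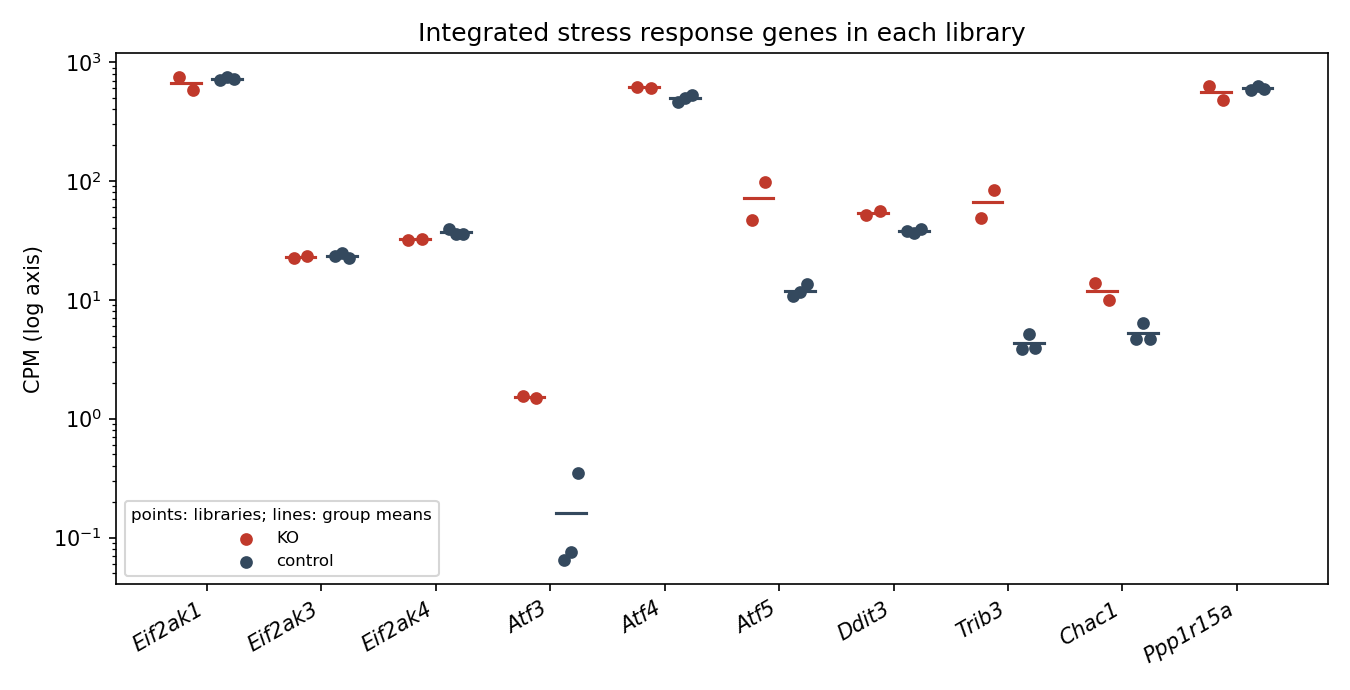
CPM of the 10 stress response genes in each library, on a log axis, with KO libraries (red) left of control libraries (dark blue) and lines at group means. The KO points of Trib3, Atf5, Atf3, Chac1, Ddit3 and Atf4 sit above all their control points, and those of Eif2ak1, Eif2ak3 and Ppp1r15a overlap them.

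None of the 3 kinase genes among the 10 passed the test. Eif2ak1 (ENSMUSG00000029613; chromosome 5, 143817788 to 143904251, mm10), the heme-regulated kinase gene, was at 743 and 578 CPM in the KO libraries and at 710, 747 and 723 CPM in the controls. KO replicate 1 thus lay within the controls' range and KO replicate 2 below it. The log2 fold change was -0.14, with a 95% interval of -0.39 to 0.11 (edgeR adjusted p = 0.487). It was -0.35 without KO replicate 1 (edgeR adjusted p = 0.0118) and 0.03 without KO replicate 2 (edgeR adjusted p = 0.902), in fits where the lone KO library is assumed to vary like the controls. Aimp2, on the opposite strand, shares 487 exonic bases with Eif2ak1 and was at 28.4 and 29.1 CPM in KO and 29.7, 35.4 and 29.8 CPM in control libraries. Strand use in the counting is a point not given in the sources used here, for this gene and those that follow.

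Eif2ak3 (ENSMUSG00000031668) encodes PERK, the kinase in the endoplasmic reticulum membrane that responds to unfolded proteins. It was at 22.4 and 23.3 CPM in the KO libraries and at 23.5, 24.6 and 22.5 CPM in the controls. Its groups overlapped, and the 95% interval of its log2 fold change was -0.25 to 0.16 (edgeR adjusted p = 0.805). Eif2ak4 (ENSMUSG00000005102) encodes GCN2, which responds to uncharged tRNA when amino acids are short. It was at 31.8 and 32.8 CPM in the KO libraries and at 39.4, 35.5 and 36.1 CPM in the controls, with both KO libraries lowest. Its log2 fold change of -0.20 ± 0.08 (SE) missed the threshold (edgeR adjusted p = 0.2; interval -0.39 to -0.01).

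Atf4 (ENSMUSG00000042406; chromosome 15, 80255184 to 80257541), the central transcription factor gene of the response, was at 619 and 604 CPM in the KO libraries and at 458, 502 and 532 CPM in the controls. Both KO libraries were above every control, by little. Atf4 had a log2 fold change of 0.30 with a 95% interval of 0.10 to 0.49, which missed the threshold in edgeR (adjusted p = 0.0726) but passed it in DESeq2 (0.29, adjusted p = 0.0277). Fits that left out 1 library gave edgeR adjusted p-values of 0.0689 to 0.25 for Atf4.

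Atf5 (ENSMUSG00000038539; chromosome 7, 44812256 to 44816658) encodes a related factor whose mRNA is, like that of Atf4, translated under eIF2 phosphorylation. It was at 47.0 and 97.5 CPM in the KO libraries and at 10.7, 11.6 and 13.5 CPM in the controls. The groups were far apart, and KO replicate 2 exceeded KO replicate 1 by a factor of 2.07. Atf5 rose, with a log2 fold change of 2.60 ± 0.26 (SE; edgeR adjusted p = 0.00126), and 1.97 without KO replicate 2. Il4i1, which overlaps Atf5 by 82 exonic bases on the opposite strand, had 17 counts at most in any library. Nup62 also overlaps Atf5 by 82 exonic bases on that strand, but it is not in the count table, so its level is not known here.

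Atf3 (ENSMUSG00000026628), a factor that represses or activates stress genes, was close to the detection limit. It had 20 and 23 counts in the KO libraries and 1, 1 and 5 counts in the controls. The ratio of the summed counts, scaled to library size, was 9.31, with an exact 95% interval of 4.15 to 24.5 for counting error only. The fitted log2 fold change was 3.15 ± 0.45 (SE; edgeR adjusted p = 0.00459). It was 2.75 without control replicate 1, 2.86 without control replicate 2 and 4.27 without control replicate 3, which held the 5 counts, with edgeR adjusted p-values up to 0.0382.

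Ddit3 (ENSMUSG00000025408) encodes CHOP, a factor linked to cell death under lasting stress. It was at 51.5 and 55.5 CPM in the KO libraries and at 38.2, 36.6 and 39.4 CPM in the controls. Both KO libraries were above every control, with a spread within each group far below the gap. Ddit3 rose, with a log2 fold change of 0.49 ± 0.08 (SE; edgeR adjusted p = 0.00844), and it missed the threshold when control replicate 1 or 2 was left out (edgeR adjusted p = 0.0521 and 0.0582). The neighbouring Mars1, listed as Mars, shares 68 exonic bases on the opposite strand and had a log2 fold change of 0.14 ± 0.07 (SE; edgeR adjusted p = 0.295). A second gene entry named Ddit3 shares 105 exonic bases on the same strand and is not in the count table.

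Trib3 (ENSMUSG00000032715; chromosome 2, 152337422 to 152344032) encodes a pseudokinase that is switched on by ATF4 and CHOP and in turn restrains ATF4 activity. It was at 49.0 and 83.3 CPM in the KO libraries and at 3.86, 5.18 and 3.95 CPM in the controls. The lower KO library was well above the highest control, and of the 10 genes Trib3 had the largest log2 fold change. It was 3.94 ± 0.23 (SE; edgeR adjusted p = 4.9e-05) and 3.50 to 4.25 in the fits that left out 1 library.

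Chac1 (ENSMUSG00000027313) encodes a gamma-glutamyl cyclotransferase that degrades glutathione. It was at 13.8 and 9.98 CPM in the KO libraries and at 4.70, 6.33 and 4.72 CPM in the controls. The groups did not overlap, and KO replicate 1 was the higher KO library, unlike for Atf5 and Trib3. The log2 fold change was 1.18 ± 0.19 (SE; edgeR adjusted p = 0.00879), and the adjusted p was 0.0579 without control replicate 1.

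Ppp1r15a (ENSMUSG00000040435) encodes GADD34, which brings a phosphatase to eIF2 and so ends the response. It was at 631 and 484 CPM in the KO libraries and at 585, 630 and 593 CPM in the controls. KO replicate 1 was the highest of the 5 libraries and KO replicate 2 the lowest. The log2 fold change was -0.11, with a 95% interval of -0.37 to 0.14 (edgeR adjusted p = 0.596). As with Eif2ak1, the value turned with the library left out, to -0.34 without KO replicate 1 (edgeR adjusted p = 0.0168) and 0.06 without KO replicate 2 (edgeR adjusted p = 0.753).

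**Figure D2:**
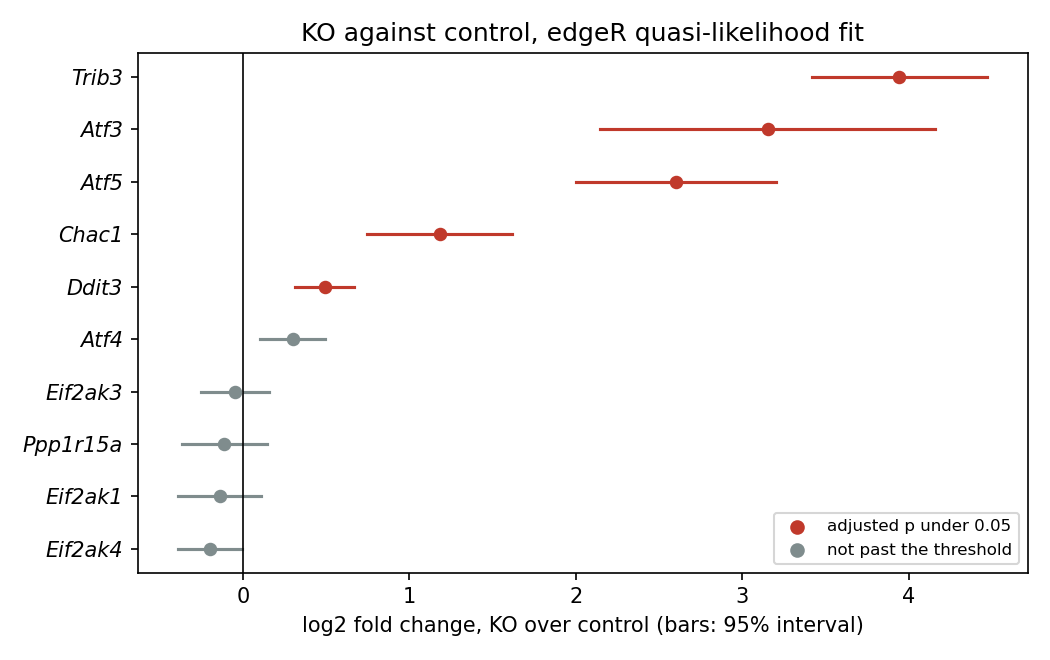
Log2 fold change of each gene, KO over control, with its 95% interval; red marks an edgeR adjusted p under 0.05. Trib3, Atf3 and Atf5 lie between 2.60 and 3.94, Chac1 and Ddit3 at 1.18 and 0.49, and the intervals of Eif2ak1, Eif2ak3 and Ppp1r15a span 0.

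The ratio between the KO libraries varied from gene to gene. The level in KO replicate 2 over that in KO replicate 1 was 2.07 for Atf5 (95% interval 1.89 to 2.28, counting error only) and 1.70 for Trib3 (1.54 to 1.87). It was 0.72 for Chac1 (0.58 to 0.90), 0.77 for Ppp1r15a (0.74 to 0.79) and 0.78 for Eif2ak1 (0.76 to 0.80). For Eif2ak3, Eif2ak4, Atf3, Atf4 and Ddit3 the interval held 1. Among the controls the highest level over the lowest was 1.26 for Atf5, 1.34 for Trib3 and 1.35 for Chac1. It was 1.08 for Ppp1r15a and 1.05 for Eif2ak1. For Chac1 the controls thus spread about as much as the KO libraries. The intervals leave out variation between samples, so for abundant genes they can exclude 1 at small differences. These ratios compare 2 libraries and not conditions.

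**Figure D3:**
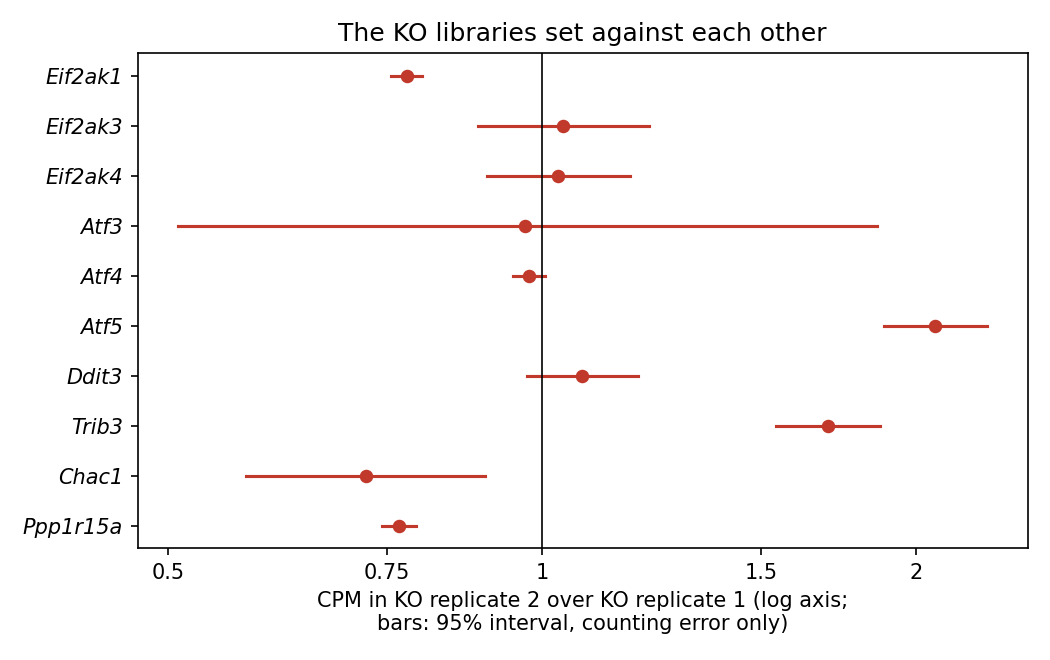
CPM in KO replicate 2 over CPM in KO replicate 1 for each gene, on a log axis, with 95% intervals for counting error only. Atf5 and Trib3 lie above 1, Eif2ak1, Ppp1r15a and Chac1 below it, and the intervals of the others reach across it.

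Levels of different genes were compared as CPM per kilobase of merged exons. In KO libraries Atf4 had the highest level, 259 ± 4.55 (SD, n = 2), followed by Ppp1r15a at 190 ± 35.3 and Eif2ak1 at 117 ± 20.6 on the same scale. In control libraries the same genes led in the same order, with Atf4 at 211 ± 15.7 (SD, n = 3), Ppp1r15a at 205 ± 8.07 and Eif2ak1 at 128 ± 3.26, and there the libraries of Atf4 and Ppp1r15a overlapped. The Eif2ak1 level per kilobase was far above those of the other kinase genes, with Eif2ak4 at 4.33 ± 0.09 and Eif2ak3 at 3.79 ± 0.11 in KO and at 4.97 ± 0.28 and 3.91 ± 0.17 in control libraries. Next after Eif2ak1 in KO came Atf5 at 36.3 ± 17.9, Ddit3 at 31.2 ± 1.64 and Trib3 at 31.1 ± 11.4 CPM per kilobase, whose libraries overlapped from neighbour to neighbour. In controls Ddit3 held that place alone at 22.2 ± 0.82, with Atf5 at 6.00 ± 0.71 and Trib3 at 2.04 ± 0.35, below Chac1 at 3.20 ± 0.57. In bulk samples, fewer cells of a type and less RNA per cell cannot be told apart.

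The surroundings of the pathway were described by lists. These were chosen with earlier results of these data known, so their counts beside the shares of all genes describe the lists and test nothing. The first list held 12 genes, namely the remaining eIF2 kinase gene, Eif2ak2, and genes that regulate the kinases or dephosphorylate eIF2. In it 2 genes rose, beside 5.15% of all genes tested, none fell, and the median log2 fold change was -0.02, beside 0.01 over all genes tested. None of the 12 passed without control replicate 1 or 2 or without the filter on low counts. Eif2ak2, for the double-stranded RNA kinase PKR, which interferon induces, was at 125 and 66.3 CPM in KO and 38.5, 40.9 and 44.0 CPM in control libraries. Both KO libraries were above all controls, KO replicate 1 by the most, and the log2 fold change was 1.21 ± 0.21 (SE; edgeR adjusted p = 0.0123). Without control replicate 1 or 2 the adjusted p of Eif2ak2 was 0.0708 and 0.0768, and without KO replicate 1 its log2 fold change was 0.67. Gcn1, listed as Gcn1l1, encodes the coactivator of GCN2 and rose, with a log2 fold change of 0.36 ± 0.09 (SE; edgeR adjusted p = 0.0404), a call lost in 4 of the 5 fits that left out 1 library and with the replicate number as a block (adjusted p up to 0.159).

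None of the 10 genes for subunits of eIF2, of its exchange factor eIF2B and for related factors passed the test in edgeR, DESeq2 or limma-voom, and 2 of them, Eif2b1 and Eif2d, had an unadjusted edgeR p under 0.05. The most abundant were Eif2s1 at 184 and 184 CPM in KO and 196, 175 and 188 CPM in control libraries, and Eif2s2 at 163 and 186 CPM in KO and 170, 160 and 157 CPM in control libraries. The list's log2 fold changes ran from -0.19 to 0.18.

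The list of other ATF, CREB and C/EBP factors held 18 genes, with Nfe2l2, Jdp2, Batf, Batf3 and the like-named Cebpz taken in. Of the 18 genes 16 were tested, 1 rose and none fell, a share near the 5.15% of all genes that rose. Nfe2l2 had the lowest log2 fold change, -0.34 (edgeR adjusted p = 0.0512). Without KO replicate 1 more genes passed both in this list and over all genes, in a fit where the lone KO library is assumed to vary like the controls. The gene that rose with all libraries was Cebpb, whose product pairs with ATF4, at 17.6 and 19.2 CPM in KO and 8.43, 7.47 and 7.91 CPM in control libraries. Its log2 fold change was 1.21 ± 0.12 (SE; edgeR adjusted p = 0.000927), and it passed in each fit that left out 1 library. The median over the 16 was 0.08 on the log2 scale.

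The list of 16 stress effector genes held mostly known ATF4 or CHOP targets, with the Trib3 relatives Trib1 and Trib2 taken in. Of the 16 genes 13 were tested, of which 8 rose, beside 5.15% of all genes. None fell, and the median log2 fold change was 0.72, beside 0.01. When at least 5 CPM in 2 libraries were required, 4 rose. Ddit4, Nupr1, Stc2 and Tnfrsf10b, all among the 8, were too low to be tested there, so this count rests on fewer genes. Ddit4, an inhibitor of mTORC1 signalling, was at 3.38 and 7.52 CPM in KO and 0.64, 0.61 and 0.90 CPM in control libraries, a log2 fold change of 2.93 ± 0.38 (SE; edgeR adjusted p = 0.00318), and 2.21 without KO replicate 2. Nupr1, a stress-induced chromatin protein gene, was at 1.54 and 2.07 CPM in KO and 0.39, 0.46 and 0.42 CPM in control libraries (edgeR adjusted p = 0.00313). Ddit4 and Nupr1 entered the test through the KO libraries alone, and both are counted among the 8 that rose. Gadd45a, which slows the cell cycle, was at 231 and 249 CPM in KO and 156, 166 and 165 CPM in control libraries (edgeR adjusted p = 0.00271), and Bbc3, which encodes the death factor PUMA, was at 13.1 and 10.3 CPM in KO and 3.80, 4.57 and 4.09 CPM in control libraries (edgeR adjusted p = 0.00169). Bbc3, Gadd45a, Sesn2 and Tnfrsf10b, all among the 8 that rose, are also known targets of p53, and Cdkn1a, a p53 target outside the list, was at 87.6 and 67.9 CPM in KO and 4.57, 4.65 and 5.62 CPM in control libraries. The part of p53 in these rises was not tested.

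Of 27 genes for amino acid synthesis, uptake and tRNA charging that ATF4 is known to switch on, 12 rose and none fell, beside 5.15% and 1.83% of all genes. A positive log2 fold change was found in 26 of the 27, beside 6829 of 13000 genes, and the median was 0.31. Slc7a11, which imports cystine, was at 14.5 and 12.3 CPM in KO and 1.74, 0.76 and 1.25 CPM in control libraries, a log2 fold change of 3.39 ± 0.24 (SE; edgeR adjusted p = 0.000134). Gpt2, an alanine transaminase gene, was at 8.45 and 10.9 CPM in KO and 2.12, 2.52 and 2.70 CPM in control libraries (edgeR adjusted p = 0.000665). Slc1a4, a neutral amino acid transporter gene, was at 43.6 and 43.7 CPM in KO and 23.2, 24.2 and 23.3 CPM in control libraries (edgeR adjusted p = 0.000606), and Pycr1, for proline synthesis, was at 12.0 and 16.7 CPM in KO and 6.95, 5.95 and 6.03 CPM in control libraries (edgeR adjusted p = 0.0045). Asns, the asparagine synthetase gene often used as a readout of ATF4, was at 579 and 637 CPM in KO and 571, 609 and 562 CPM in control libraries, with a log2 fold change of 0.07 ± 0.08 (SE; edgeR adjusted p = 0.678). With control replicate 1, 2 or 3 left out, 4, 6 and 6 of these 27 passed upward, and without the filter on low counts 5 did.

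Promoter windows matched 21 of the amino acid genes, of which 9 held the core TGATGNAA, beside the 4.51% over all genes. Among these 9, Slc7a11, Slc1a4, Pycr1, Pck2 and Tars1 rose, and Aars1, Asns, Gars1 and Yars1 did not pass. In the stress effector list 4 of 12 genes with a window held it, namely Nupr1, which rose, Herpud1, which did not pass, and Fgf21 and Vldlr, which were not tested. The core was in none of 7 genes with a window in the list of Eif2ak2 and the eIF2 regulators, in 1 of 9 eIF2 and eIF2B genes (Eif2s3x) and in 1 of 13 other ATF, CREB and C/EBP factor genes (Jdp2). The amino acid and stress effector lists were made mostly of known ATF4 targets, so a share above that of all genes was likely from the choice. A match is a run of letters and not a binding site.

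**Figure D4:**
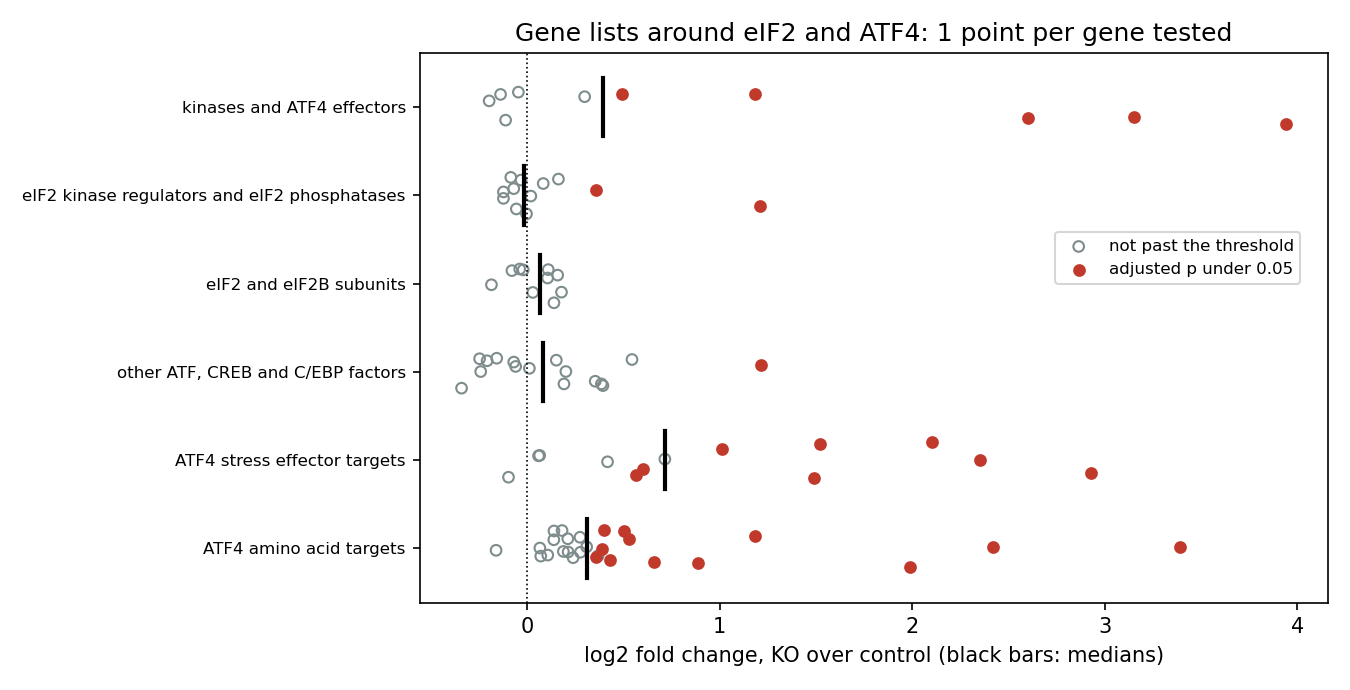
Log2 fold change, KO over control, of each tested gene in the 6 lists, with filled red points for an edgeR adjusted p under 0.05 and black bars for medians. Medians lie at 0.72 for the stress effectors, 0.31 for the amino acid genes and between -0.02 and 0.08 for the eIF2 regulators (a list that includes Eif2ak2), the eIF2 subunits and the other factors.

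The genes with the most similar profiles to Trib3, Atf5 and Atf4 were found by the root mean square difference over the 5 libraries of log2(CPM + 0.5), taken relative to the control mean. Nearest to Trib3 were Slc7a3, an amino acid transporter gene, at a distance of 0.14, then Rhbdf1 at 0.30 and Cdkn1a at 0.41. Slc7a3 was at 9.15 and 11.9 CPM in KO and at 0.26, 0.38 and 0.28 CPM in control libraries. The fitted log2 fold change of Slc7a3 was 5.09, beside 3.94 for Trib3. The 0.5 added to each CPM shrinks the differences of genes with such low control levels, so a small distance can hide unlike fold changes. Nearest to Atf5 were Jag2 at 0.13, Ddit4 at 0.17 and Mgarp at 0.20. In each of them KO replicate 2 held the higher level of the KO pair, which a choice by these same libraries favours. Their fitted log2 fold changes were 3.50, 2.93 and 3.51, beside 2.60 for Atf5. Jag2, Ddit4 and Mgarp were below 1 CPM in each control library. Slc7a3, Jag2, Ddit4 and Mgarp were under the filter's cutoff of 0.693 CPM in at least 2 control libraries. They thus entered the test through the KO libraries alone and could hardly have entered without differing. For Atf4, whose difference was small, the nearest were Tldc1 at 0.01, Zfp629 at 0.02 and Tbxas1 at 0.02, none of which passed edgeR's test.

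Markers of other cells were read beside these results. The summed CPM of 9 matched erythroid markers was 50858 and 40546 in KO and 46531 to 56266 in control libraries, and none of the 9 passed edgeR's test, though 5 of them had both KO libraries below all controls, beside 19.3% of all genes. The summed CPM of 10 macrophage markers was 90.4 and 86.9 in KO and 117 to 129 in control libraries, and 5 of the 9 tested fell, beside 1.83% of all genes. Sums of 10 hepatocyte markers were 276 and 326 CPM in KO and 234 to 372 CPM in control libraries, and sums of 9 granulocyte and mast cell markers were 695 and 586 CPM in KO and 507 to 740 CPM in control libraries. The 7 megakaryocyte markers summed to 65.3 and 100.3 CPM in KO and 61.9 to 69.0 CPM in control libraries, with none of the 5 tested past the threshold. In KO replicate 2 Itga2b (57.5 CPM), Pf4 (20.9 CPM) and Treml1 (6.61 CPM) were above all other libraries, while Gp9 (10.0 CPM) and Ppbp (4.47 CPM) were below all of them. No marker gene was at 0 in all 5 libraries. The part of these cells in the differences was not tested.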

How the data were processed

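The authors deposited whole-number counts per Ensembl gene for each library, not normalised, and no column was left out. The submitters' processing notes name HTSeq, STAR, Bowtie and cutadapt, and mm10 as the build, with versions, strand and multi-mapping settings not given in the sources used here. Per the labels' protocols, poly(A) RNA was made into Ion Torrent libraries and sequenced on an Ion Proton. Symbols, coordinates and exon lengths came from GENCODE M21 (GRCm38, the assembly of mm10), and promoter windows from RefSeq.

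Counts were tested with edgeR 4.0.16 (R 4.3.3) by the quasi-likelihood test, with TMM scaling, filterByExpr, a design of group only with 3 residual degrees of freedom, and Benjamini-Hochberg adjustment over 13000 genes. The steps were run on counts simulated with the fitted dispersions, which cannot tell whether that model suits these data. Ratios of 2 counts carry exact conditional 95% intervals (SciPy), which hold no term for variation between samples and so cover counting error only. The reads carry no molecular identifiers, so copies of the same molecule count separately. Alternatives were DESeq2 1.42.0, limma-voom (limma 3.58.1), RLE scaling, omission of globin and mitochondrial genes, no filter, at least 5 CPM in 2 libraries, a replicate block and each library left out. Genes named from the lists were up to 4 with the smallest p among those that passed, or the 2 most abundant where none passed, and the 3 nearest profiles of Trib3, Atf5 and Atf4 with at least 1 CPM on average. Other genes are named after their values were seen. The members and lists were chosen with earlier results of these data known.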

Additional observations from a re-analysis of the deposited data

How the results depend on the processing

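Trib3, Atf5 and Atf3 rose in each alternative that tested them; Atf3 was not tested at 5 CPM in 2 libraries. Log2 fold changes with each library left out ranged from -0.353 to 0.0275 for Eif2ak1, -0.337 to 0.0623 for Ppp1r15a, -0.0656 to 0.018 for Eif2s1, 0.43 to 0.52 for Ddit3 and 0.91 to 1.40 for Chac1. Without a filter on low counts Ddit3 (0.49, adjusted p = 0.0507) and Chac1 (1.18, adjusted p = 0.057) missed the threshold; Atf4 passed with DESeq2 at 0.29. The count of the 10 genes that rose was 3 without the filter and 3 to 5 with each library left out, and that of genes that fell was 0 to 2. Over all genes, 235 rose and 53 fell without the filter, and 210 to 1709 rose and 31 to 1247 fell with each library left out. Of the genes in the 5 surrounding lists, 23 rose; 12 did without the filter and 12 to 35 with each library left out. None fell, 0 to 4 did with each library left out, and 1, Nfe2l2 (adjusted p = 0.0512 with all libraries), fell without globin and mitochondrial genes and 1, the same gene, with DESeq2. Counts without KO replicate 1 or 2 rest on a lone KO library. The cause of these shifts was not tested. The median over all genes moved by less than 0.1 on the log2 scale in each alternative. The replicate numbers were not taken to pair samples, since the labels do not say that they do. Same-numbered KO and control libraries had deviations correlated at 0.00161 and 0.0421. With 2 KO libraries the KO deviations mirror each other, so these values cannot decide on pairing. With the replicate block 5 of the 10 genes rose and 19 list genes rose. In that fit control replicate 3 has no KO library of the same number, so it adds nothing to the KO effect. The block also leaves fewer residual degrees of freedom than the design of group only. Atf3 rests on at most 23 counts per library.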
